A study of Mus musculus with 8 samples.

Results

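The genes described here were the 63 protein-coding mouse genes of 38031 genes in the count table whose symbols start with Hist1h, Hist2h, Hist3h or Hist4, the replication-dependent histone genes. They were found by symbol after each Ensembl transcript was matched to GENCODE M21, and each gene was represented by its transcript of lowest Ensembl number. GENCODE M21 lists 67 such genes, and the other 4 (*Hist1h3h*, *Hist1h3i*, *Hist1h2bh* and *Hist1h2bm*) were not analysed here. The 63 genes were 6 linker histone H1 genes, 18 H2A, 16 H2B, 10 H3 and 13 H4 genes. By cluster, 50 carried a Hist1 symbol, 10 Hist2, 2 Hist3 and 1 Hist4. The counted transcript was a single exon in 60 of the 63, so that "intronless" fitted all but *Hist1h2bc*, *Hist1h2be* and *Hist1h2br*. Of the 63 genes, 61 had a mean of 10 or more reads and were tested together with all 21082 genes that passed this minimum.

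RNA-seq had been performed on the primary motor cortex (M1) of male Swiss Webster mice, 4 injected with *Fezf2 shRNA* and 4 with *non-silencing shRNA* (control). Both groups received a lentivirus at P21 to P25, in which the Synapsin I promoter, a neuronal promoter, drives the mCherry reporter and the shRNA as 1 transcript. Tissue was taken at P49 to P53 as the mCherry-positive area with all layers and the meninges, so that each library also holds glia, vessels and cells without virus. The comparison asked which genes follow the reduced level of *Fezf2*, a transcription factor of deep-layer projection neurons, in the mature cortex. The 8 libraries had 54684016 to 58003814 reads on genes. *Fezf2* itself had 686, 771, 732 and 689 normalized counts in control 1 to 4 and 623, 587, 574 and 592 in Fezf2 shRNA 1 to 4. Every *Fezf2 shRNA* library was below every control, with a log2 fold change of -0.28 ± 0.0753 (SE), adjusted p = 0.141.

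Histones package DNA: an octamer of H2A, H2B, H3 and H4 forms the nucleosome core, and H1 binds the linker DNA. The replication-dependent genes lie in clusters, are transcribed mainly in S phase, and give short mRNAs that end in a conserved stem-loop in place of a poly(A) tail. The stem-loop is bound by SLBP, and the end is cut by a complex that holds the U7 snRNA. In cells that no longer divide, such as mature neurons, histones are thought to come mostly from replication-independent variant genes, although some members of the clusters are known to give polyadenylated transcripts as well. A total RNA kit, which does not select for poly(A) tails, was used here, so that mRNAs ending in the stem-loop could enter the libraries.

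The stem-loop is shown first because it defines the mRNAs. The pattern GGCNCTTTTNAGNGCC, a stem around a loop of 4 bases on the coding strand, was found in the counted transcript of 40 of the 63 genes (4 of 6 H1, 11 of 18 H2A, 8 of 16 H2B, 8 of 10 H3 and 9 of 13 H4). Over all 55450 annotated genes, 47 held it in any transcript (0.0848%). Many of the other counted transcripts stop at or near the end of the coding sequence, so a missing match says only that these letters are not in the annotated transcript. The 6 examples are read from GENCODE M21 transcripts (GRCm38, 5′ to 3′), with the 16 bases of the pattern in capitals and 5 bases to each side in lower case. The 16 bases are the same in the H1, H2A and H2B examples and in *Hist1h3d*, and those of *Hist1h3e* and *Hist1h4h* differ from them.
Hist1h1c (chr13:23739507-23739532, plus strand): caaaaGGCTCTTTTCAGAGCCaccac
Hist3h2a (chr11:58955167-58955192, plus strand): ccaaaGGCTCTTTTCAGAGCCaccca
Hist1h2bg (chr13:23571838-23571863, plus strand): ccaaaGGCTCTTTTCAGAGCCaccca
Hist1h3d (chr13:23576239-23576264, plus strand): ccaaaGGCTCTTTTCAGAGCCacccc
Hist1h3e (chr13:23561898-23561923, minus strand): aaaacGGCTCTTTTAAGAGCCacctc
Hist1h4h (chr13:23531453-23531478, plus strand): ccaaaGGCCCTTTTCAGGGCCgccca

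The promoters of the classes hold different short motifs, which are shown because the members were compared by class. Of the 63 genes, 58 matched the RefSeq promoter table (GRCm38.p6, 250 bases before to 50 after the start), and 4 motifs were searched on both strands. CCAAT was in the promoter of all 6 H1, all 18 H2A, all 14 H2B and all 8 H3 genes matched but in 3 of 12 H4 genes, against 37.9% of all 27025 promoters. TATANA, a pattern bound by TBP that can overlap its own reverse complement, was in 46 of 58 against 25.4%. ATTTGCAT, the octamer bound by POU factors such as OCT1, was in 7 of 18 H2A and 5 of 14 H2B genes and in no H1, H3 or H4 gene, against 1.75%. GGTCC, the core of an element described for H4 promoters, was in 11 of 12 H4 genes and 24 of all 58, against 45.4%. In the 120 bases before the start, with matches in capitals, 3 examples are as follows.
Hist1h1a (chr13:23763548-23763667, plus strand): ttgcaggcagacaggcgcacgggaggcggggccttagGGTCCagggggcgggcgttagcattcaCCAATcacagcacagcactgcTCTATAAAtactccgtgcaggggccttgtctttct
Hist1h2bk (chr13:22035701-22035820, plus strand): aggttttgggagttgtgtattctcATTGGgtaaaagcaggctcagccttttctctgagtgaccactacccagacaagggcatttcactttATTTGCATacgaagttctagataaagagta
Hist1h4h (chr13:23530924-23531043, plus strand): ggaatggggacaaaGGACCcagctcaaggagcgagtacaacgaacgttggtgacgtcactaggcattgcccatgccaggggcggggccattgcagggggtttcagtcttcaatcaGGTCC

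Many members are near-copies of each other, which sets how far single genes can be told apart. Coding sequences of equal length within a class were 77.7% to 100% identical for H2A (median 96.7%), 82.8% to 99.5% for the 13 H2B genes counted over a single exon, 93.6% to 100% for H3 and 85.4% to 100% for H4. All 50-base words of the H2B gene *Hist1h2bq* also occur in *Hist1h2br*, which has several exons. One stretch of 60 coding bases (bases 178 to 237) was identical in 15 of the 18 H2A genes, across chromosomes 13 and 3. It is shown for 4 genes, with bases that differ from the common stretch in capitals. *Hist1h2ak* differed at 1 base and *Hist3h2a* at 9.
Hist1h2ad (chr13:23574648-23574707, plus strand): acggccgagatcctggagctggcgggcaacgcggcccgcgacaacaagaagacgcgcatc
Hist2h2aa1 (chr3:96245758-96245817, plus strand): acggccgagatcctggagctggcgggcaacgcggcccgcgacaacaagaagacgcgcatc
Hist1h2ak (chr13:21753591-21753650, minus strand): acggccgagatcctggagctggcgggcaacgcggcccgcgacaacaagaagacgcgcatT
Hist3h2a (chr11:58954915-58954974, plus strand): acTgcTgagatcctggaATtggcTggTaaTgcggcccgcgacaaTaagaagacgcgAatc

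A median of 49.7% of the 50-base words of a counted transcript also occurred in a transcript of another gene, and the share was over 50% in 31 of the 63 genes and under 25% in 17. The counting treated each transcript interval on its own, and the treatment of multi-mapped reads is not given in the sources used here. In 7 H2A genes (*Hist1h2ab*, *ad*, *ae*, *ah*, *ai*, *ao* and *ap*) the raw counts lay between 410 and 466 in control 1, between 500 and 549 in control 3 and between 298 and 331 in Fezf2 shRNA 3. The counts of these 7 genes varied together over the libraries, and the same reads may stand behind several of them, so that counts of members are not counts of independent genes. Whether strand was used in the counting is not given in the sources used here, and 24 of the 63 intervals overlapped another annotated gene. The 15 tested genes with under 25% of shared words are therefore given separately and called largely unique genes. That share is of sequence and not of reads, so shared reads may still be counted for these genes. *Hist1h4j*, which is among them (24.6% of words shared), had 1512, 1086, 1761 and 1327 raw counts in control 1 to 4. *Hist1h4b*, with 54.6% of words shared, had 1531, 1115, 1796 and 1362.

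The histone genes were clearly detected in this tissue. As raw counts, the 63 genes together took 0.0555% of the reads on genes, and the H4 genes held 46.6% of these, the H2A genes 22.4%, the H2B genes 14.3%, the H1 genes 8.62% and the H3 genes 8.12%, with shared reads counted for each gene. The level per length of the 61 tested genes was 13.8 to 4837 reads per kb of the counted interval (median 494). In the 1681 olfactory and vomeronasal receptor genes, which serve as a background of genes not known to be used in cortex, it was 1.23 to 1.73 reads per kb over the 8 libraries. The lowest tested level belonged to *Hist1h2be*, whose counted interval spans 37455 bases with introns, and it was 9.54 times the receptor background. The highest levels per length were in H4 genes, with *Hist1h4k* at 4837, *Hist1h4h* at 3987 and *Hist1h4b* at 3319 reads per kb. Their intervals are short (312, 470 and 397 bases), and they share 71.5%, 45.8% and 54.6% of their words with other genes. The H4 genes *Hist2h4* and *Hist4h4*, with longer intervals and little shared sequence, had 171 and 195 reads per kb, below the median of 494.

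**Figure D1:**
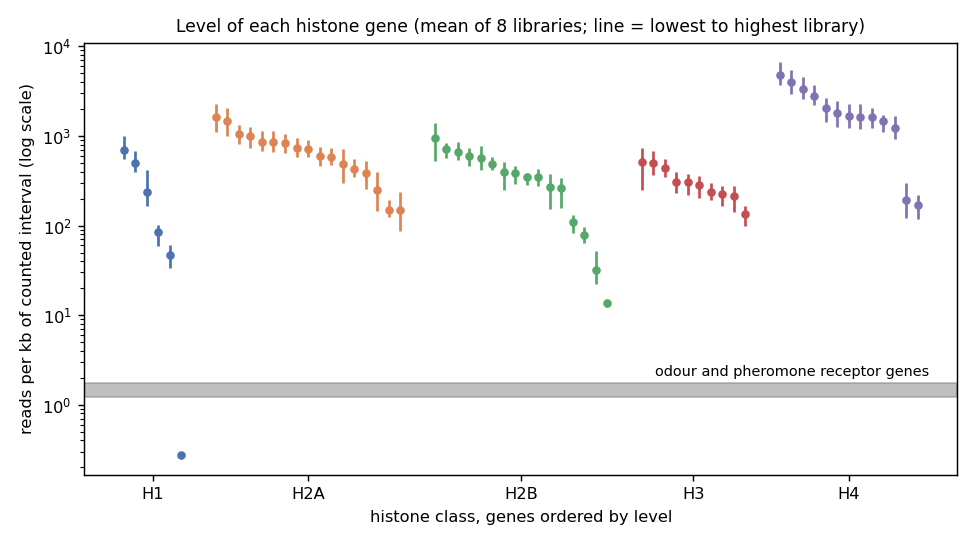
Reads per kb of the counted interval (log scale) for each histone gene with at least 1 read, ordered by level within its class, as the mean of 8 libraries with a line from the lowest to the highest library; the grey band is the range over libraries for receptor genes of smell and pheromones. Every tested gene sits above the band, and *Hist1h1t* sits below it at 0.274 reads per kb.

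Both members under the minimum of 10 reads are known from the testis. *Hist1h2aa* had 0 reads in all 8 libraries, which allows up to 0.00666 CPM (3 reads over the 8 libraries, counting error only). *Hist1h1t*, the testis-specific linker histone, had 2 reads, both in Fezf2 shRNA 2. Just above the minimum stood *Hist1h1b*, with 44, 63, 75 and 67 raw reads in control 1 to 4 and 72, 57, 52 and 74 in Fezf2 shRNA 1 to 4, and *Hist2h2ab*, with 66, 59, 95 and 64 against 106, 51, 39 and 45. No gene lay between a mean of 0.25 and a mean of 63 reads. *Hist1h2ba*, also known as a testis form, did have reads, a mean of 102, with 38.2% of its words shared with another gene.

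No histone gene passed the threshold between the treatments, and nearly all were slightly lower with *Fezf2 shRNA*. A gene passed when its adjusted p was 0.05 or less and its log2 fold change at least 0.2 in either direction (edgeR quasi-likelihood test, Benjamini-Hochberg over 21082 genes). This held for 0 of the 61 histone genes and for 0.142% of all genes tested (0.00474% in the lower direction), and DESeq2, which called 3.31% of all genes, also called 0 of 61. The log2 fold change was negative in 58 of the 61 histone genes (95.1%) against 51.7% of all genes, and its median was -0.23, a level 0.852 times that of the controls, against -0.0092 over all genes. An unadjusted p under 0.05 in the lower direction was found in 11 of 61 (18%) against 4.49% of all genes, and in the higher direction in 0 against 9.24%. Adjusted p-values of the members ran from 0.214 to 0.964. The 11 became 3 without Fezf2 shRNA 4, 4 without control 3, 5 without control 1 and 6 without Fezf2 shRNA 3, and 18 without control 2 and 25 without Fezf2 shRNA 2. With a GC content offset, which was added after the data were seen, they became 7. In tissue, fewer cells of a type and less RNA per cell cannot be told apart.

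**Figure D2:**
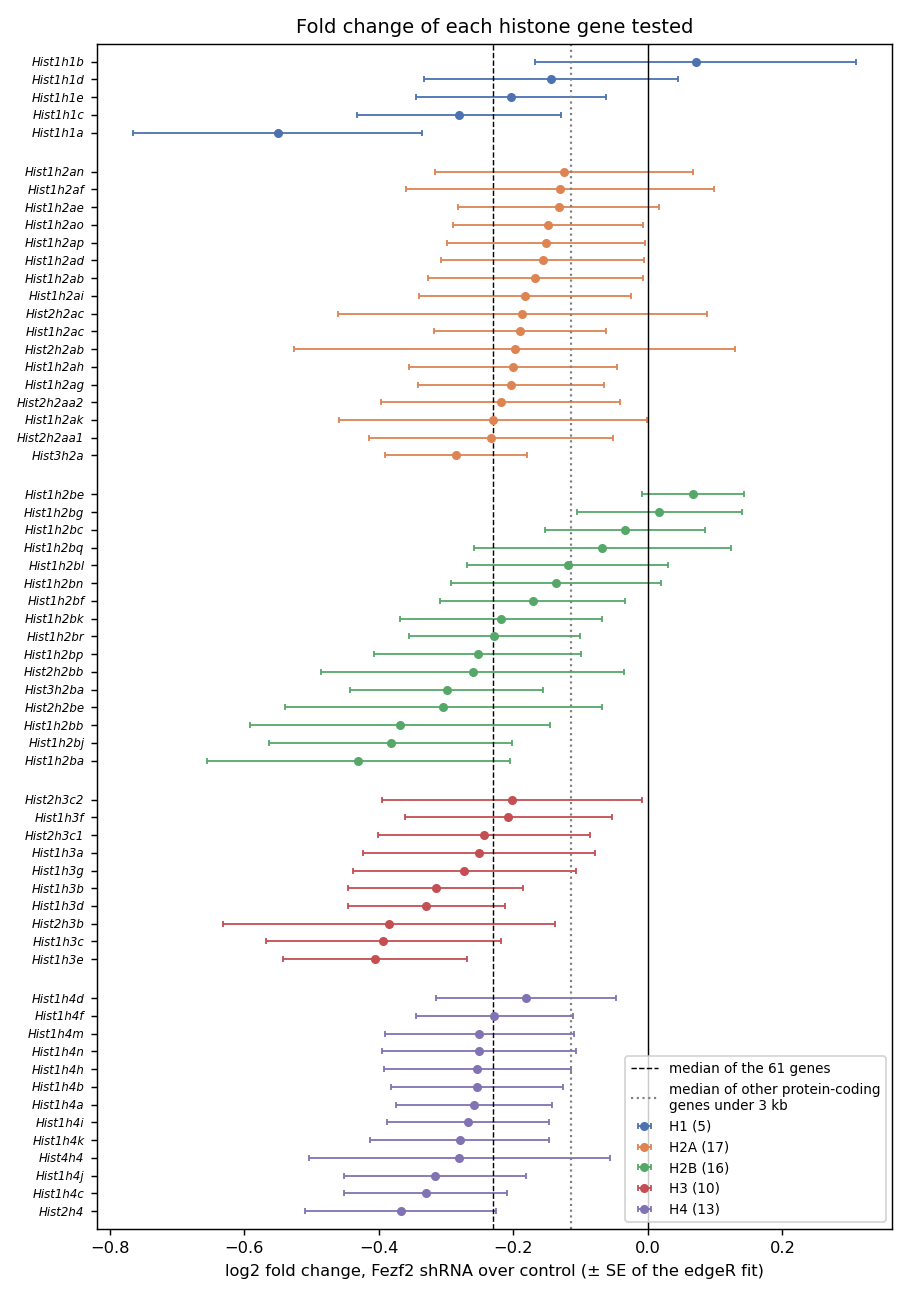
Log2 fold change (*Fezf2 shRNA* over control) of each of the 61 histone genes tested, with the SE of the edgeR fit, by class; the dashed line is their median and the dotted line the median of other protein-coding genes under 3 kb. Of the points, 58 lie left of 0, and the 3 to its right are *Hist1h1b*, *Hist1h2be* and *Hist1h2bg*.

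The summed counts differed by about the same size, with overlapping groups. All 63 genes together had 625, 505, 713 and 584 in control 1 to 4 and 513, 571, 473 and 451 in Fezf2 shRNA 1 to 4, in CPM (counts scaled to a total of 1000000 reads on genes in each library). The groups overlapped, since control 2 lay below Fezf2 shRNA 1 and 2, and control 3 was the highest library. The sums were 607 ± 86.4 against 502 ± 52.6 (mean ± SD, n = 4 each), a ratio of 0.827, and the difference of the means was a little larger than 1 SD of the controls. These sums are scaled to library totals, without the TMM factors used for the fold changes, so the scales differ. In a fit with library totals the median log2 fold change was -0.052 over all genes and -0.27 over the histone genes. No p is given for sums, because the genes were chosen with results known. The ratio was 0.827 for H1, 0.846 for H2A, 0.878 for H2B, 0.787 for H3 and 0.809 for H4, and by cluster 0.831 for Hist1, 0.814 for Hist2, 0.796 for Hist3 and 0.798 for Hist4. The 17 largely unique genes had a ratio of 0.818 and the 46 others 0.83.

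**Figure D3:**
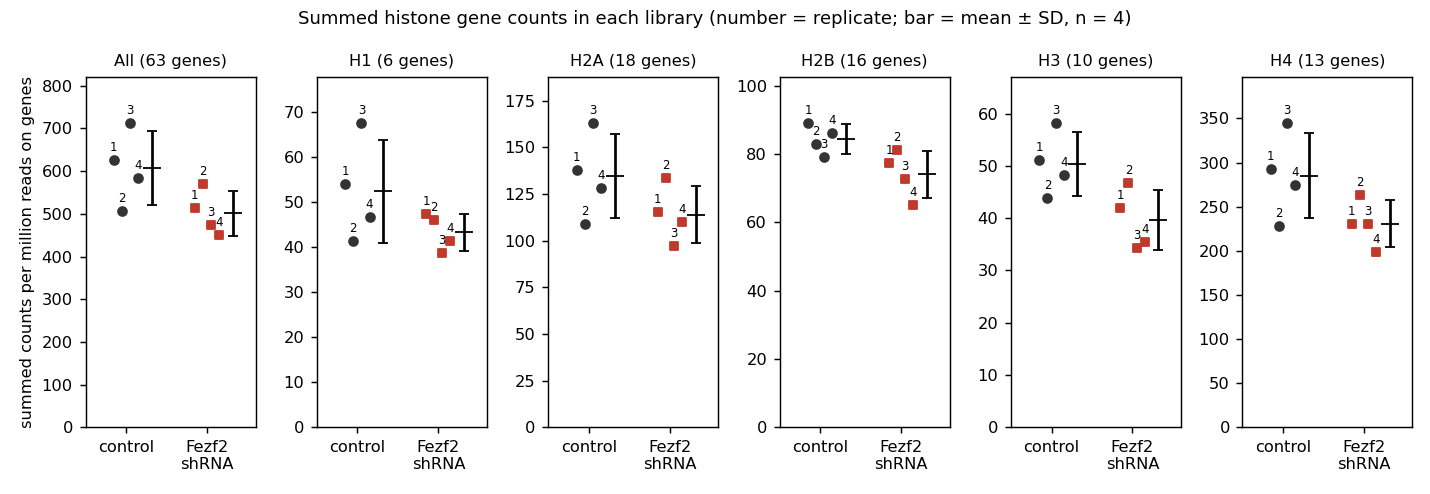
Summed counts in each library, in CPM over reads on genes, for all 63 genes and for each class, with the mean ± SD of 4 libraries beside the points. The *Fezf2 shRNA* libraries overlap the controls in every panel, and for all genes they span 451 to 571 against 505 to 713.

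H4, the core histone whose protein is identical from nearly all its gene copies, had the highest summed counts of the classes, with shared reads counted for each gene. All 13 H4 genes had a negative log2 fold change, from -0.37 to -0.18 (median -0.26), and 5 had an unadjusted p under 0.05. *Hist1h4h* had 2107, 1602, 2529 and 1892 normalized counts in control 1 to 4 and 1667, 1983, 1767 and 1404 in Fezf2 shRNA 1 to 4. Control 3 was the highest library and Fezf2 shRNA 4 the lowest, and control 2 and 4 lay within the *Fezf2 shRNA* range. This was 2033 ± 390.2 against 1705 ± 240.0 (mean ± SD, n = 4 each), with a log2 fold change of -0.25 ± 0.139 (SE, adjusted p = 0.441). *Hist1h4d* had 2098, 1696, 2261 and 1709 normalized counts in control 1 to 4 and 1914, 2009, 1391 and 1535 in Fezf2 shRNA 1 to 4, again with overlapping groups. *Hist1h4d* was among the largely unique genes (10.2% of words shared), and its means were 1941 ± 284 against 1712 ± 296 (mean ± SD, n = 4 each), with a log2 fold change of -0.18 ± 0.133 (SE, adjusted p = 0.573).

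Among the H4 genes, *Hist1h4c* was the nearest to separate groups by its exact permutation test. *Hist1h4c* had 1520.4, 1386, 1846 and 1285 normalized counts in control 1 to 4 and 1182, 1372, 1232 and 1015 in Fezf2 shRNA 1 to 4. The lowest control and the highest *Fezf2 shRNA* libraries crossed by control 4 against Fezf2 shRNA 2, and the two-sided exact permutation p was 0.0571, with 0.0286 the smallest that 4 against 4 libraries allow. Its means were 1509 ± 244 against 1200.2 ± 147 (mean ± SD, n = 4 each), with a log2 fold change of -0.33 ± 0.122 (SE, adjusted p = 0.259). *Hist1h4k* had 1772, 1293, 2028 and 1509 normalized counts in control 1 to 4 and 1329.7, 1538, 1399.7 and 1170.4 in Fezf2 shRNA 1 to 4 (log2 fold change -0.28 ± 0.133 (SE), adjusted p = 0.378). *Hist1h4a* had 1711, 1351, 1956 and 1477 normalized counts in control 1 to 4 and 1336, 1531, 1354 and 1207 in Fezf2 shRNA 1 to 4 (log2 fold change -0.26 ± 0.116 (SE), adjusted p = 0.36). Both genes share most or much of their sequence with other H4 genes (71.5% and 40.4% of words) and had control 3 highest, then control 1, control 4 and control 2. *Hist1h4b* had 1502, 1157, 1760.4 and 1299.5 normalized counts in control 1 to 4 and 1165, 1367, 1223 and 1042 in Fezf2 shRNA 1 to 4 (log2 fold change -0.25 ± 0.128 (SE), adjusted p = 0.407). *Hist1h4j* had 1483, 1127, 1726 and 1266 normalized counts in control 1 to 4 and 1111, 1279.9, 1175 and 933 in Fezf2 shRNA 1 to 4 (log2 fold change -0.32 ± 0.135 (SE), adjusted p = 0.334). *Hist1h4i* had 981, 848, 1180.2 and 869 normalized counts in control 1 to 4 and 769, 909, 853 and 691 in Fezf2 shRNA 1 to 4 (log2 fold change -0.27 ± 0.121 (SE), adjusted p = 0.362). In each of the 3 genes control 3 was the highest library and Fezf2 shRNA 4 the lowest.

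The H4 genes outside the Hist1 cluster were named after their values were seen, because almost none of their sequence is shared. *Hist2h4*, on chromosome 3 (chr3:96261682-96263311), shared 1.01% of its words. *Hist2h4* had 304, 257, 347 and 343 normalized counts in control 1 to 4 and 266, 267, 195 and 242 in Fezf2 shRNA 1 to 4. Control 2 lay below Fezf2 shRNA 1 and 2, and the means were 313 ± 41.9 against 243 ± 33.8 (mean ± SD, n = 4 each), with a log2 fold change of -0.37 ± 0.142 (SE, adjusted p = 0.281). *Hist4h4*, the single gene of its cluster on chromosome 6 (chr6:136801553-136804415), shared 7.07%. *Hist4h4* had 678, 361, 839 and 555 normalized counts in control 1 to 4 and 609, 469.8, 387 and 539 in Fezf2 shRNA 1 to 4. Control 2 was the lowest of all 8 libraries and control 3 the highest, and the means were 608 ± 202 against 501 ± 94.8 (mean ± SD, n = 4 each), with a log2 fold change of -0.28 ± 0.224 (SE, adjusted p = 0.608).

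H3, the core histone whose tail carries many of the known modifications, had the most negative median of the classes. All 10 genes had a negative log2 fold change, from -0.41 to -0.20 (median -0.29), and 4 had an unadjusted p under 0.05. *Hist1h3e* had 511, 409, 559 and 405 normalized counts in control 1 to 4 and 363, 421, 323 and 315 in Fezf2 shRNA 1 to 4. Control 2 and control 4 lay below Fezf2 shRNA 2, and the means were 471 ± 76.5 against 355 ± 48.7 (mean ± SD, n = 4 each), with a log2 fold change of -0.41 ± 0.137 (SE, adjusted p = 0.214). This was the smallest adjusted p of any histone gene, and 73.4% of the words of *Hist1h3e* also occur in another gene. *Hist1h3d*, named after its values were seen, was the single histone gene in which every *Fezf2 shRNA* library lay below every control, which held for 2.94% of all genes. *Hist1h3d* had 296, 341, 367 and 303 normalized counts in control 1 to 4 and 246, 294, 239 and 261 in Fezf2 shRNA 1 to 4. Fezf2 shRNA 2 and control 1 were less than 3 counts apart. The means were 327 ± 33.1 against 260.1 ± 24.2 (mean ± SD, n = 4 each), with a log2 fold change of -0.33 ± 0.117 (SE, adjusted p = 0.239), with an exact permutation p of 0.0286, the smallest that 4 against 4 libraries allow.

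The H1 linker histones, whose sequences differ most from each other, held both extremes of all members. The 5 tested genes ran from -0.55 to 0.071 (median -0.20), and none shares more than 32% of its words with another gene. *Hist1h1a* had 190.3, 164, 303 and 174 normalized counts in control 1 to 4 and 176, 131, 125 and 136 in Fezf2 shRNA 1 to 4. Control 3 stood far above the other controls, and control 2 and 4 lay just below Fezf2 shRNA 1. *Hist1h1a* (H1.1) had the most negative log2 fold change of the 61 genes, and its means were 208 ± 64.4 against 142 ± 23.4 (mean ± SD, n = 4 each), with a log2 fold change of -0.55 ± 0.215 (SE, adjusted p = 0.286). *Hist1h1b* had 43.2, 65.4, 73.5 and 63.9 normalized counts in control 1 to 4 and 72.9, 57.7, 52.3 and 75.6 in Fezf2 shRNA 1 to 4. *Hist1h1b* (H1.5) had the most positive log2 fold change, although control 1 was the lowest library and the groups overlapped, with means of 61.5 ± 12.9 against 64.6 ± 11.4 (mean ± SD, n = 4 each), with a log2 fold change of 0.071 ± 0.238 (SE, adjusted p = 0.926). *Hist1h1e* had 1427, 1240.2, 1891 and 1148 normalized counts in control 1 to 4 and 1319.5, 1328, 1084 and 1224 in Fezf2 shRNA 1 to 4. *Hist1h1e* (H1.4), the H1 gene with the most reads, had means of 1427 ± 331 against 1239 ± 113 (mean ± SD, n = 4 each), with a log2 fold change of -0.20 ± 0.142 (SE, adjusted p = 0.547), and its interval overlaps that of *Hist1h2be*. *Hist1h1c* (H1.2), named after its values were seen, is known to be expressed in cells that do not divide. *Hist1h1c* had 958, 649, 1043 and 722 normalized counts in control 1 to 4 and 821, 689.6, 623 and 641 in Fezf2 shRNA 1 to 4. Control 1 and 3 were the 2 highest libraries and control 2 and 4 lay within the *Fezf2 shRNA* range (log2 fold change -0.28 ± 0.152 (SE), adjusted p = 0.436).

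All 17 tested genes of H2A, which pairs with H2B in the nucleosome core, had a negative log2 fold change within a narrow range, from -0.29 to -0.12 (median -0.19). 1 of them, *Hist3h2a*, had an unadjusted p under 0.05. *Hist3h2a* had 1059, 902, 1176 and 893 normalized counts in control 1 to 4 and 918, 774, 858 and 758 in Fezf2 shRNA 1 to 4. Control 4 and control 2 lay just below Fezf2 shRNA 1, and the means were 1008 ± 136 against 827 ± 74.8 (mean ± SD, n = 4 each), with a log2 fold change of -0.29 ± 0.106 (SE, adjusted p = 0.261). Its interval on chromosome 11 (chr11:58954685-58956830) overlaps *Trim17*, and how far reads of that gene were counted for *Hist3h2a* was not tested. *Hist2h2aa1* had 1079, 693, 1173 and 761 normalized counts in control 1 to 4 and 926, 792, 589 and 848 in Fezf2 shRNA 1 to 4. *Hist2h2aa2* had 1065, 709, 1177 and 768 normalized counts in control 1 to 4 and 926, 816, 592 and 862 in Fezf2 shRNA 1 to 4. Both counts nearly coincide in every library, as both coding sequences are identical and 100% of the words of *Hist2h2aa2* occur elsewhere. Their log2 fold changes were -0.23 ± 0.182 and -0.22 ± 0.178 (SE), with adjusted p of 0.599 and 0.614. *Hist2h2ab* had 64.7, 61.2, 93.1 and 61.1 normalized counts in control 1 to 4 and 107, 51.6, 39.2 and 46 in Fezf2 shRNA 1 to 4. The highest library of *Hist2h2ab* was Fezf2 shRNA 1 (log2 fold change -0.20 ± 0.328 (SE), adjusted p = 0.834).

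H2B, the partner of H2A, was the class with the widest spread between members after H1 and with no gene at an unadjusted p under 0.05. Of 16 genes, 14 had a negative and 2 a positive log2 fold change, from -0.43 to 0.067 (median -0.22). *Hist1h2ba* had 115, 150.5, 96.1 and 109.7 normalized counts in control 1 to 4 and 98.2, 105, 85.5 and 60.3 in Fezf2 shRNA 1 to 4. Fezf2 shRNA 4 was the lowest library and control 2 the highest, and the means were 118 ± 23.2 against 87.3 ± 19.8 (mean ± SD, n = 4 each), with a log2 fold change of -0.43 ± 0.225 (SE, adjusted p = 0.423). *Hist1h2be* had 500.3, 484, 522 and 507 normalized counts in control 1 to 4 and 511, 546, 543 and 509 in Fezf2 shRNA 1 to 4. Its groups overlapped within a narrow range, with means of 503 ± 16.1 against 527 ± 19.9 (mean ± SD, n = 4 each), with a log2 fold change of 0.067 ± 0.0763 (SE, adjusted p = 0.742). *Hist1h2bg* had 500.3, 446, 391 and 419.8 normalized counts in control 1 to 4 and 496, 486, 438 and 357 in Fezf2 shRNA 1 to 4. These values gave 439 ± 46.4 against 445 ± 63.3 (mean ± SD, n = 4 each), with a log2 fold change of 0.017 ± 0.122 (SE, adjusted p = 0.964). *Hist1h2be* and *Hist1h2bg* lie among the 3 of 61 above 0, and with *Hist1h2bc*, named after its values were seen, *Hist1h2be* makes 2 of the 3 counted transcripts with several exons that lie near 0. *Hist1h2bc* (log2 fold change -0.034 ± 0.119 (SE), adjusted p = 0.93) has a counted interval of 8710 bases, and *Hist1h2br*, the other one, had a log2 fold change of -0.23 ± 0.127 (SE). Over the 58 genes of a single exon the median was -0.24.

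The libraries had an order that differed between the classes. In the 45 tested genes of H1, H2A, H3 and H4, control 3 was the highest of the 4 controls in 42 and control 2 the lowest in 34. In the 16 H2B genes control 2 was the highest control in 9 and control 3 the lowest in 11. Among the *Fezf2 shRNA* libraries, Fezf2 shRNA 2 was the highest in 43 of all 61 genes and the lowest in none, and Fezf2 shRNA 3 or 4 was the lowest in 57. Over all 8 libraries the highest was a control in 51 of 61 genes and the lowest a *Fezf2 shRNA* library in 54. The same counts over all genes tested or over other short genes are not given here. The order of the libraries is therefore not shown to be particular to histone genes. Since genes of a class share sequence, these counts describe groups of similar genes rather than separate ones.

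**Figure D4:**
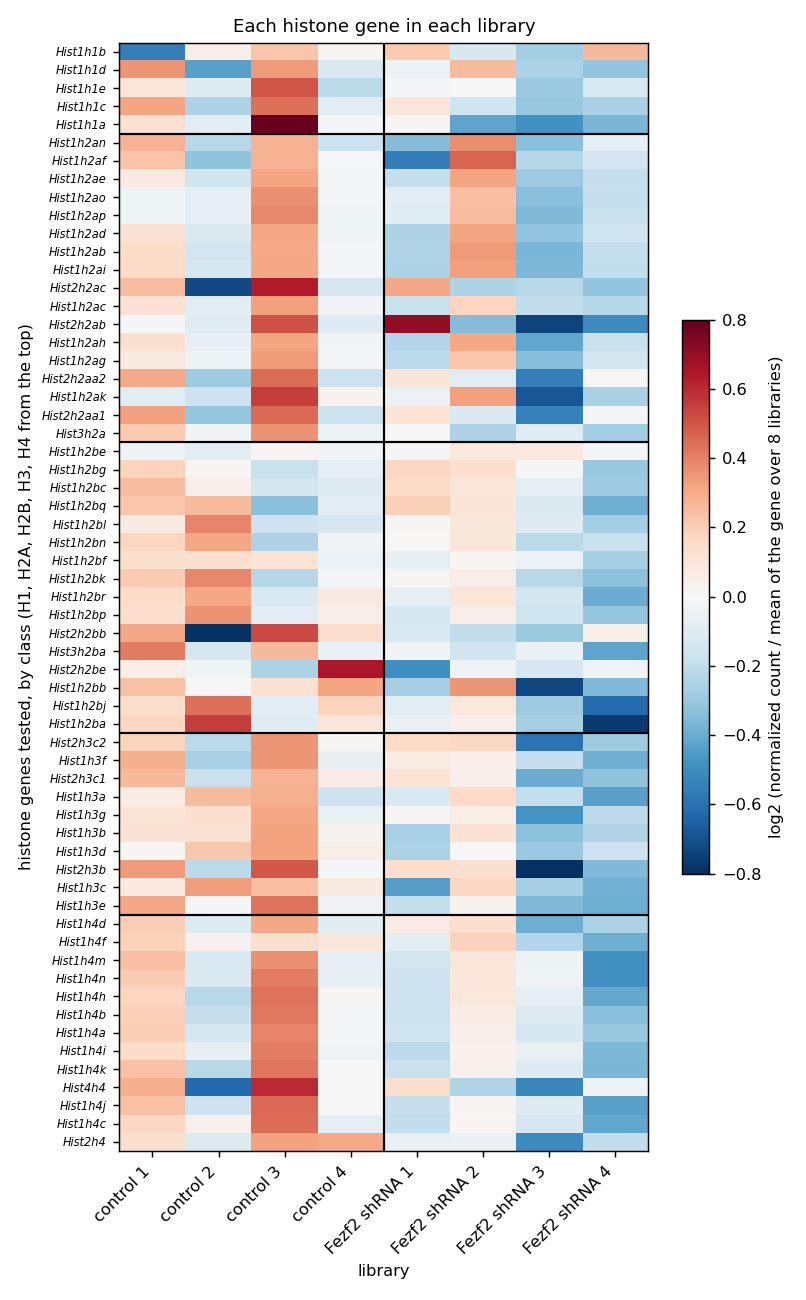
Normalized count of each of the 61 histone genes in each library, as log2 of the ratio to the mean of the gene over the 8 libraries (red higher, blue lower), by class from H1 at the top to H4. Control 3 is red in most rows outside H2B, where control 2 is red, and Fezf2 shRNA 3 and 4 are mostly blue.

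Other short genes were also lower on balance. Over 4046 other genes with an interval under 3 kb, the median log2 fold change was -0.060, with 57.6% negative. Over 1058 other protein-coding genes under 3 kb it was -0.11, with 70.3% negative and 8.03% at an unadjusted p under 0.05 in the lower direction. For the 641 of these whose GC content lay within the interquartile range of the histone genes, the median was -0.13 (74.9% negative, 10.3% at an unadjusted p under 0.05 in the lower direction). Over 474 other protein-coding genes of 1 exon it was -0.055. The median of the histone genes, -0.23, was lower than each of these. It was -0.22 in a fit with a gene length offset and -0.18 with the GC content offset. The 15 largely unique genes had a median of -0.28, with 13 of 15 negative and 5 at an unadjusted p under 0.05, and the 38 genes that overlap no other gene had a median of -0.26.

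**Figure D5:**
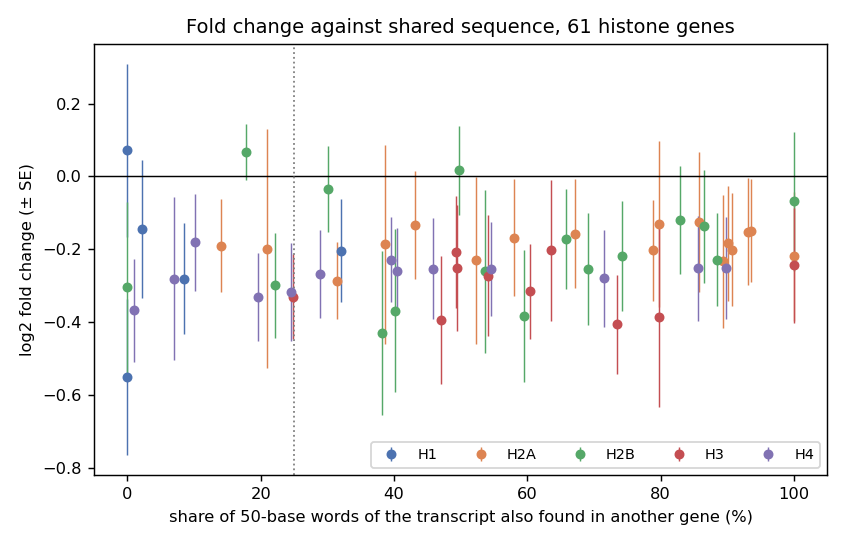
Log2 fold change (± SE of the edgeR fit) of the 61 histone genes against the share of 50-base words of the counted transcript that also occur in another gene, coloured by class; the dotted line marks 25%. Genes on both sides of the line lie mostly below 0, with medians of -0.28 on the left and -0.23 on the right.

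The other genes of histone supply showed smaller median differences, and none of the 71 tested passed the threshold. The genes listed as replication-independent variants had a median log2 fold change of -0.071 over 11 genes (10 negative, 1 at an unadjusted p under 0.05, lower). *H3f3b*, which encodes H3.3, had -0.12 ± 0.0784 (SE), adjusted p = 0.533, and *H2afz*, which encodes H2A.Z, had -0.071 ± 0.107 (SE), adjusted p = 0.815. The extremes were *H2afv* at -0.16 and *H2afy*, a macroH2A gene, at 0.024. Over 17 genes of histone mRNA synthesis and 3′ processing the median was -0.042, from *Zfp473* at -0.47 to *Lsm11*, a subunit of the U7 snRNP, at 0.25, with none at an unadjusted p under 0.05. *Slbp*, which encodes the protein that binds the stem-loop, had 556 ± 73.1 normalized counts in the controls and 504 ± 46.5 with *Fezf2 shRNA* (mean ± SD, n = 4 each), with a log2 fold change of -0.14 ± 0.112 (SE), adjusted p = 0.603. The 16 histone chaperone genes had a median of -0.022, from *Nasp*, a carrier of H1 and H3-H4, at -0.17 to *Chaf1b*, a subunit of CAF-1, at 0.55, and 1 gene had an unadjusted p under 0.05 in the higher direction.

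Genes of S phase and proliferation had values in both directions. The summed level of 28 such genes was 134 to 142 CPM in the controls and 135 to 139 with *Fezf2 shRNA*. *Tyms*, which encodes thymidylate synthase, had 1989 ± 66.8 normalized counts in the controls and 2465 ± 167 with *Fezf2 shRNA* (mean ± SD, n = 4 each), with a log2 fold change of 0.31 ± 0.0668 (SE), adjusted p = 0.077. Every *Fezf2 shRNA* library was above every control for this gene. Without *Tyms*, which was left out after its values were seen, the sum was 99 to 103 CPM in the controls and 91.3 to 96.3 with *Fezf2 shRNA*. These groups did not overlap, whereas those of the full list did. The gene left out was chosen from these same values, so no conclusion is drawn from the separation. Over the 27 tested the median log2 fold change was -0.11, and 16 were negative and 11 positive. An unadjusted p under 0.05 was found for 5 in the lower direction, against 4.49% of all genes tested. In the higher direction it was found for 1, against 9.24% of all genes tested. The latter was *Tyms* and the others were *E2f1* (-0.43), *E2f2* (-1.06), *Mcm6*, *Mcm7* (-0.23) and *Rrm1* (-0.24). Apart from *Mcm6*, these were named after their values were seen. For *E2f1* and *E2f2* every *Fezf2 shRNA* library was below every control, which held for 2.94% of all genes. *Mki67*, the common proliferation marker, had 119.7 ± 29.6 normalized counts in the controls and 127 ± 88.6 with *Fezf2 shRNA*, a log2 fold change of 0.085 ± 0.413 (SE), adjusted p = 0.949. The extremes were *Mcm6*, a subunit of the replicative helicase, at -1.08 ± 0.403 (SE) and *Cdt1*, a licensing factor, at 0.31 ± 0.381 (SE). Neither passed the threshold (adjusted p = 0.263 and 0.76).

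Markers of glia and other cells also differed between the libraries, and their part in the histone values was not tested. No marker passed the threshold. Over all genes tested, 51.7% had a negative log2 fold change and 4.49% an unadjusted p under 0.05 in the lower direction. All 8 oligodendrocyte markers were lower (median log2 fold change -0.52, from *Cldn11* at -0.64 to *Mbp* at -0.30), 6 with an unadjusted p under 0.05. Such a p was also found for 3 markers of oligodendrocyte precursors, 1 of pericytes and meningeal fibroblasts and 2 of lymphocytes. The summed level of the oligodendrocyte markers was 1121, 1525, 1373 and 2179 CPM in control 1 to 4 and 872, 836, 1392 and 1363 in Fezf2 shRNA 1 to 4. The highest library was control 4 and the lowest Fezf2 shRNA 2. All 7 markers of oligodendrocyte precursors were lower too (median -0.20, from *Sox10* at -0.69 to *Pdgfra* at -0.042), with sums of 113 to 154 CPM in the controls and 100.2 to 120.3 with *Fezf2 shRNA*. All 8 markers of pericytes and meningeal fibroblasts were lower (median -0.25, from *Lum* at -0.48 to *Col1a1* at -0.020). Their sums were 69.7 to 107 CPM in the controls and 60.4 to 86.3 with *Fezf2 shRNA*. The 4 of 9 lymphocyte markers with enough reads were lower too (median -0.69, from *Igkc* at -3.05 ± 1.34 (SE) to *Ptprc* at -0.15). The value of *Igkc* rests mainly on control 4, with 61.8, 0, 8.82 and 302 normalized counts in control 1 to 4. In Fezf2 shRNA 1 to 4 *Igkc* had 3.04, 10.1, 0 and 31.7. The sums of the lymphocyte markers were 15.2 to 25.2 CPM in the controls and 9.13 to 11.7 with *Fezf2 shRNA*.

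Neuronal markers, which identify the tissue, were the most abundant list, with sums of 5236 to 5580.3 CPM in the controls and 5283 to 5554 with *Fezf2 shRNA*. Their median log2 fold change was -0.017 (8 genes, from *Gad1* at -0.090 to *Rbfox3* at 0.29), with 4 negative and 4 positive. An unadjusted p under 0.05 was found for 3 of the 8 in the higher direction, against 9.24% of all genes tested. In the lower direction it was found for 0, against 4.49%. The astrocyte median was -0.074 (8 genes, from *Gfap* at -0.30 to *Slc1a2* at 0.13, sums of 1195 to 1330.3 CPM in the controls and 1159 to 1248 with *Fezf2 shRNA*), and the endothelial median -0.13 (7 genes, from *Cdh5* at -0.45 to *Slco1c1* at 0.11, sums of 66 to 90.5 CPM in the controls and 70 to 75.1 with *Fezf2 shRNA*). Microglial markers had a median of 0.048 (9 genes, from *Cx3cr1* at -0.060 to *C1qa* at 0.29), with sums of 168 to 211 CPM in the controls and 149 to 216 with *Fezf2 shRNA*. All 5 red blood cell markers were higher (median 0.37, from *Hbb-bs* at 0.35 to *Hba-a2* at 0.48), with sums of 27.2 to 91.2 CPM in the controls and 44.6 to 117 with *Fezf2 shRNA*. Every marker list had at least 1 read for each of its genes. The receptor genes used as read background had a mean of 1.29 reads per kb in the controls and 1.59 with *Fezf2 shRNA*. These means rest on a minority of the receptor genes, since 1336 of the 1681 had 0 reads in all libraries. The part of background reads in the histone values was not tested.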

How the data were processed

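RNA-seq counts of 8 libraries, 4 per treatment, were analysed, grouped by the titles of the samples. The authors deposited raw counts per Ensembl transcript, made from paired-end reads of a TruSeq Stranded Total RNA kit that were trimmed, aligned to mm10 with TopHat2 and counted over whole transcript intervals with BEDTools multiCov. Options for strand or introns are not given in the sources used here, and counting without them raises the counts of genes that overlap others. Levels per length use the whole interval. The other deposited file, with fold changes and p-values per gene from the authors' own comparison, was not used. Of 94647 transcripts, 91320 matched GENCODE M21 (GRCm38), and 1 per gene was kept, the one with the lowest Ensembl number.

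Genes with a mean of 10 or more reads were tested with edgeR 4.0.16 (TMM, quasi-likelihood test, no covariate) in R 4.3.3, with limma 3.58.1, and DESeq2 1.42.0 as an alternative. The exact permutation test for single genes used normalized counts, that is counts scaled to the mean of the effective library sizes. Fold changes and SEs come from the fit over all genes, which also gives adjusted p-values. Sums, sequences and figures were made with matplotlib 3.10.9, scipy 1.17.1, pandas 2.3.3 and numpy 2.4.6 under Python 3.11.15. The steps were tested on simulated data. The series gives 4 animals per treatment, and each library was taken as 1 animal. At 54684016 to 58003814 reads per library the spread between replicates (a biological coefficient of variation of 18.8%) limits most comparisons rather than counting error, and limits for a count of 0 cover counting error only.

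The genes, the lists and the comparison were chosen with earlier results of these data known. Named with values in every library are the 12 histone genes with the highest mean count, any past the threshold, the 3 with the largest and the 3 with the smallest log2 fold change, and the 2 just above and just under a mean of 10 reads. Of each list, the genes with the largest and smallest log2 fold change are named, with *Slbp*, *H3f3b*, *H2afz*, *Mki67* and *Fezf2*. A gene first placed in the microglial list is not reported here. Others are marked or stand in lists of symbols. Alternatives changed the normalization, filter, test, transcript per gene, members, a replicate block, offsets for gene length (loess span of 0.3) and GC content, or left out each library.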

Additional observations from a re-analysis of the deposited data

Results flagged for a closer look

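Single libraries that stood far from the other 3 of their treatment were found for 7 of 146 groups of 4 libraries (61 genes and 12 sums in both treatments), and chance alone would give about 1 in 20. *Hist1h2ac* had 416 normalized counts in Fezf2 shRNA 2, above the 316 to 326 of the other libraries of its treatment. *Hist1h2ae* had 506 normalized counts in Fezf2 shRNA 2, above the 333 to 356 of the other libraries of its treatment. *Hist1h2ao* had 531 normalized counts in control 3, above the 393 to 408 of the other libraries of its treatment. *Hist1h2ap* had 538 normalized counts in control 3, above the 392.3 to 403 of the other libraries of its treatment. *Hist1h2bf* had 156 normalized counts in control 4, below the 173 to 176 of the other libraries of its treatment. *Hist2h2ab* had 93.1 normalized counts in control 3, above the 61.1 to 64.7 of the other libraries of its treatment. *Hist2h2ac* had 161 normalized counts in Fezf2 shRNA 1, above the 104 to 112 of the other libraries of its treatment. Of the 7 genes, 3 stood out by a high value in control 3 and 2 by a high value in Fezf2 shRNA 2, and *Hist1h2ae*, *Hist1h2ao* and *Hist1h2ap* are H2A genes with shared sequence.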

How the results depend on the processing

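No histone gene passed the threshold under any of the 24 alternatives run, and the median log2 fold change of the histone genes stayed between -0.32 and -0.16. The log2 ratio of the summed counts stayed between -0.35 and -0.19 under 18. The summed H2B counts moved from -0.19 to -0.030 under the 8 CPM filter of the study, where fewer H2B genes are left. The number of all genes past the threshold, 30, became 10 with DESeq2 size factors, 11 with TMM after the 10 most counted genes were left out, 11 with the widest transcript, 84 with more than 1 CPM, 208 with more than 8 CPM, 103 with no filter, 698 with the DESeq2 Wald test, 2 with the gene length offset and 6 with the GC content offset, and 0 to 175 with 1 library left out. The cause was not tested. The signs of 3 genes near 0 turned: *Hist1h2bg* was -0.024 with library totals, -0.038, -0.017, -0.043 and -0.033 without control 3, control 4, Fezf2 shRNA 1 and Fezf2 shRNA 2. *Hist1h2bc* was 0.020 with the gene length offset and 0.049 and 0.043 without control 1 and Fezf2 shRNA 4, and *Hist1h1b* was -0.069 and -0.015 without these. With 1 library left out, the log2 fold change of *Hist1h2bg* ran from -0.043 to 0.11, that of *Hist1h2bc* from -0.098 to 0.049 and that of *Hist1h1b* from -0.069 to 0.17. The other named genes kept their direction, but their sizes moved: *Hist1h1e* ran from -0.31 to -0.041, *Hist4h4* from -0.47 to -0.088 and *Hist2h2ab* from -0.62 to -0.033, each nearest to 0 without control 3. A change of test does not apply to sums.

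Whether the replicate numbers pair the samples is not clear. The deviations of samples with the same number (1 to 4) correlated by 0.12, -0.0375, -0.0237 and 0.0552. The highest correlation of each control with a *Fezf2 shRNA* sample of another number was 0.0199, 0.113, 0.0413 and 0.0514. With the replicate block 7 genes passed the threshold, none of them histone genes (median -0.23), and with the replicate block and gene length offset 4 did, with *Hist1h2bc* at 0.019.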
